A study of Homo sapiens with 8 samples.

Results

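The 4 HOX gene clusters of MCF10A cells were examined for accessible chromatin. Members were the 39 protein-coding genes of the GENCODE annotation of GRCh38 named HOXA, HOXB, HOXC or HOXD with a number, of 20046 protein-coding genes in all, and the accessible regions in or around them. Peaks that shared a base in any of the 4 deposited lists were merged into 126658 regions, and the 69 regions that touched a cluster or the 10 kb on either side of it were kept. The rule used positions and names and no measured value.

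HOX genes encode homeodomain transcription factors that set positional identity along the body axis. They lie side by side in 4 clusters that arose by duplication, and genes at the same place in different clusters form 13 paralog groups, numbered from the end that is used first and most anteriorly in the embryo to the end that is used last and most posteriorly. Adult epithelia, the mammary gland among them, keep part of this pattern, and Polycomb proteins keep the unused stretches closed. HOX proteins bind DNA together with TALE homeodomain partners of the PBX, MEIS and PKNOX families.

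MCF10A is an established, immortalised line of non-tumorigenic human mammary epithelial cells, unmodified in this experiment (genotype WT). Cells had been given 5 ng/ml of TGFβ1, a cytokine under which they undergo epithelial-mesenchymal transition (EMT), for 6, 24 or 72 h, or a matching volume of solvent with BSA in PBS, which the labels place at time 0 and a figure legend of the study describes as given for as long as the longest TGFβ1 treatment. Accessible DNA was tagged by transposase (ATAC-seq) in 8 libraries, 2 independent biological replicates per condition. What was deposited is 1 list of peaks for each condition, for which the authors pooled the replicate pair at peak calling. Differences between conditions below were therefore not set against the spread of replicates, and none has a p-value.

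The level of a region is given as AUC, which is the area that the peak caller finds under its curve of significance and which grows with read depth, peak height and peak width. The authors kept peaks with an AUC above 200, so "closed" or "no peak" means only that no peak above that limit was listed. The 4 lists, in the order solvent, 6, 24 and 72 h, held 86209, 107656, 118433 and 116720 peaks, and although the study names a sequencing target, the usable reads behind each list are unknown. At regions within 3 kb of a transcription start site (TSS), AUC values were shifted against solvent by a median of 0.44, 0.38 and 0.25 (log2) at 6, 24 and 72 h, and these shifts were removed from every log2 ratio below, which is called a scaled ratio. At regions farther than 3 kb from a TSS the shifts were 0.56, 0.61 and 0.52, so that scaled to those regions every ratio below would be lower by 0.12, 0.23 and 0.27 at the 3 times, and positive ratios smaller than that would turn negative. Of the 4 epithelial genes checked, KRT5, KRT14, CDH1 and EPCAM, all had a peak at the TSS in every list. The scaled ratio at 72 h was -0.50 at EPCAM, -0.34 at CDH1, 0.065 at KRT5 and 1.92 at KRT14.

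The sequences that carry the main differences between and within the clusters are shown first, as the plus strand of GRCh38 around the highest summit of each region, with annotated untranslated exons left out and every CG dinucleotide in capitals. Regions are numbered along the chromosome within each cluster. The first are the regions of largest AUC in solvent in HOXA and in HOXD.
HOXA-r19, chr7:27143682-27143804: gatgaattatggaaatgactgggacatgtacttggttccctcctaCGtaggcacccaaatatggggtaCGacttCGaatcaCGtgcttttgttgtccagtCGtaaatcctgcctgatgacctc
HOXD-r5, chr2:176140555-176140755: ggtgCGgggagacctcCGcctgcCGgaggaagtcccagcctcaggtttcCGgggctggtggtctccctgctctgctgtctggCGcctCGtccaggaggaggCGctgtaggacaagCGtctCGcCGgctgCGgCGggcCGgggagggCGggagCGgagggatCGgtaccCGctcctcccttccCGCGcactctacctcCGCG
They lay at the HOXA5 start site and in an intron of HOXD3. Their CpG observed-to-expected ratios were 0.73 and 0.79.

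The next sequences belong to the region with the largest rise at 72 h (HOXA-r29, at HOXA11), the region with the largest fall (HOXA-r4, upstream of HOXA2), the region of largest AUC at 72 h among those with a peak in the TGFβ1 lists only (HOXA-r3, at HOXA2), and the region of larger AUC among those lost at 72 h (HOXC-r17, in an intron of HOXC4).
HOXA-r29, chr7:27184371-27184571: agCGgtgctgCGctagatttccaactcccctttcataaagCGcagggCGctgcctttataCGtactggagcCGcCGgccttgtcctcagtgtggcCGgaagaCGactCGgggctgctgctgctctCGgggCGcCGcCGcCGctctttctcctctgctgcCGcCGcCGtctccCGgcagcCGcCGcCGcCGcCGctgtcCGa
HOXA-r4, chr7:27102901-27103101: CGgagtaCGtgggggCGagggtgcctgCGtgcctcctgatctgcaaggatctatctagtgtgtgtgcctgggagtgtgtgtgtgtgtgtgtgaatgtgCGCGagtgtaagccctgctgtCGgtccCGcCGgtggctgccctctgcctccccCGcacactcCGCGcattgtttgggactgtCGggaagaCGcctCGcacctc
HOXA-r3, chr7:27101533-27101733: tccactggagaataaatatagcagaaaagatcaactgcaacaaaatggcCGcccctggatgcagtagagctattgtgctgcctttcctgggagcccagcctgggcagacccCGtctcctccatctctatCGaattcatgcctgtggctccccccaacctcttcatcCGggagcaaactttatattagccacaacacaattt
HOXC-r17, chr12:54051418-54051618: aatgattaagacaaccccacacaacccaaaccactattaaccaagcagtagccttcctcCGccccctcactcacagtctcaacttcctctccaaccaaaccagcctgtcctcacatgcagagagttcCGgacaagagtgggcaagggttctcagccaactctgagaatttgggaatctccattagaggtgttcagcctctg
The CpG ratio was 1.07 in the region that rose and 0.74 in the region that fell. The stretches at the gained HOXA-r3 and the lost HOXC-r17 were poorer, at 0.33 and 0.17, with 4 and 2 CG dinucleotides.

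The clusters were unequally open. HOXA at chr7:27092993-27200091, held 30 of the 69 regions, or 23.6 per 100 kb of window. HOXC at chr12:53938831-54056030 held 17 (12.4 per 100 kb), HOXB at chr17:48528526-48728750 held 15 (6.81 per 100 kb) and HOXD at chr2:176092721-176190907 held 7 (5.92 per 100 kb). In the solvent list, peaks covered 14.6% of the HOXA window, 7.83% of HOXC, 2.06% of HOXD and 1.94% of HOXB. The genes of HOXB span 200 kb, against 107, 117 and 98 kb in HOXA, HOXC and HOXD. That span takes in the long stretch between HOXB9 and HOXB13. Density and coverage of HOXB without this stretch were not computed, so its rank beside HOXC and HOXD depends on the window. Of the AUC summed over all clusters in solvent, 45.9% lay in HOXA, 35.7% in HOXC, 11.6% in HOXB and 6.78% in HOXD. These shares moved by few points under TGFβ1, the HOXA share lying between 43.5% and 47.4% in the other lists.

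**Figure D1:**
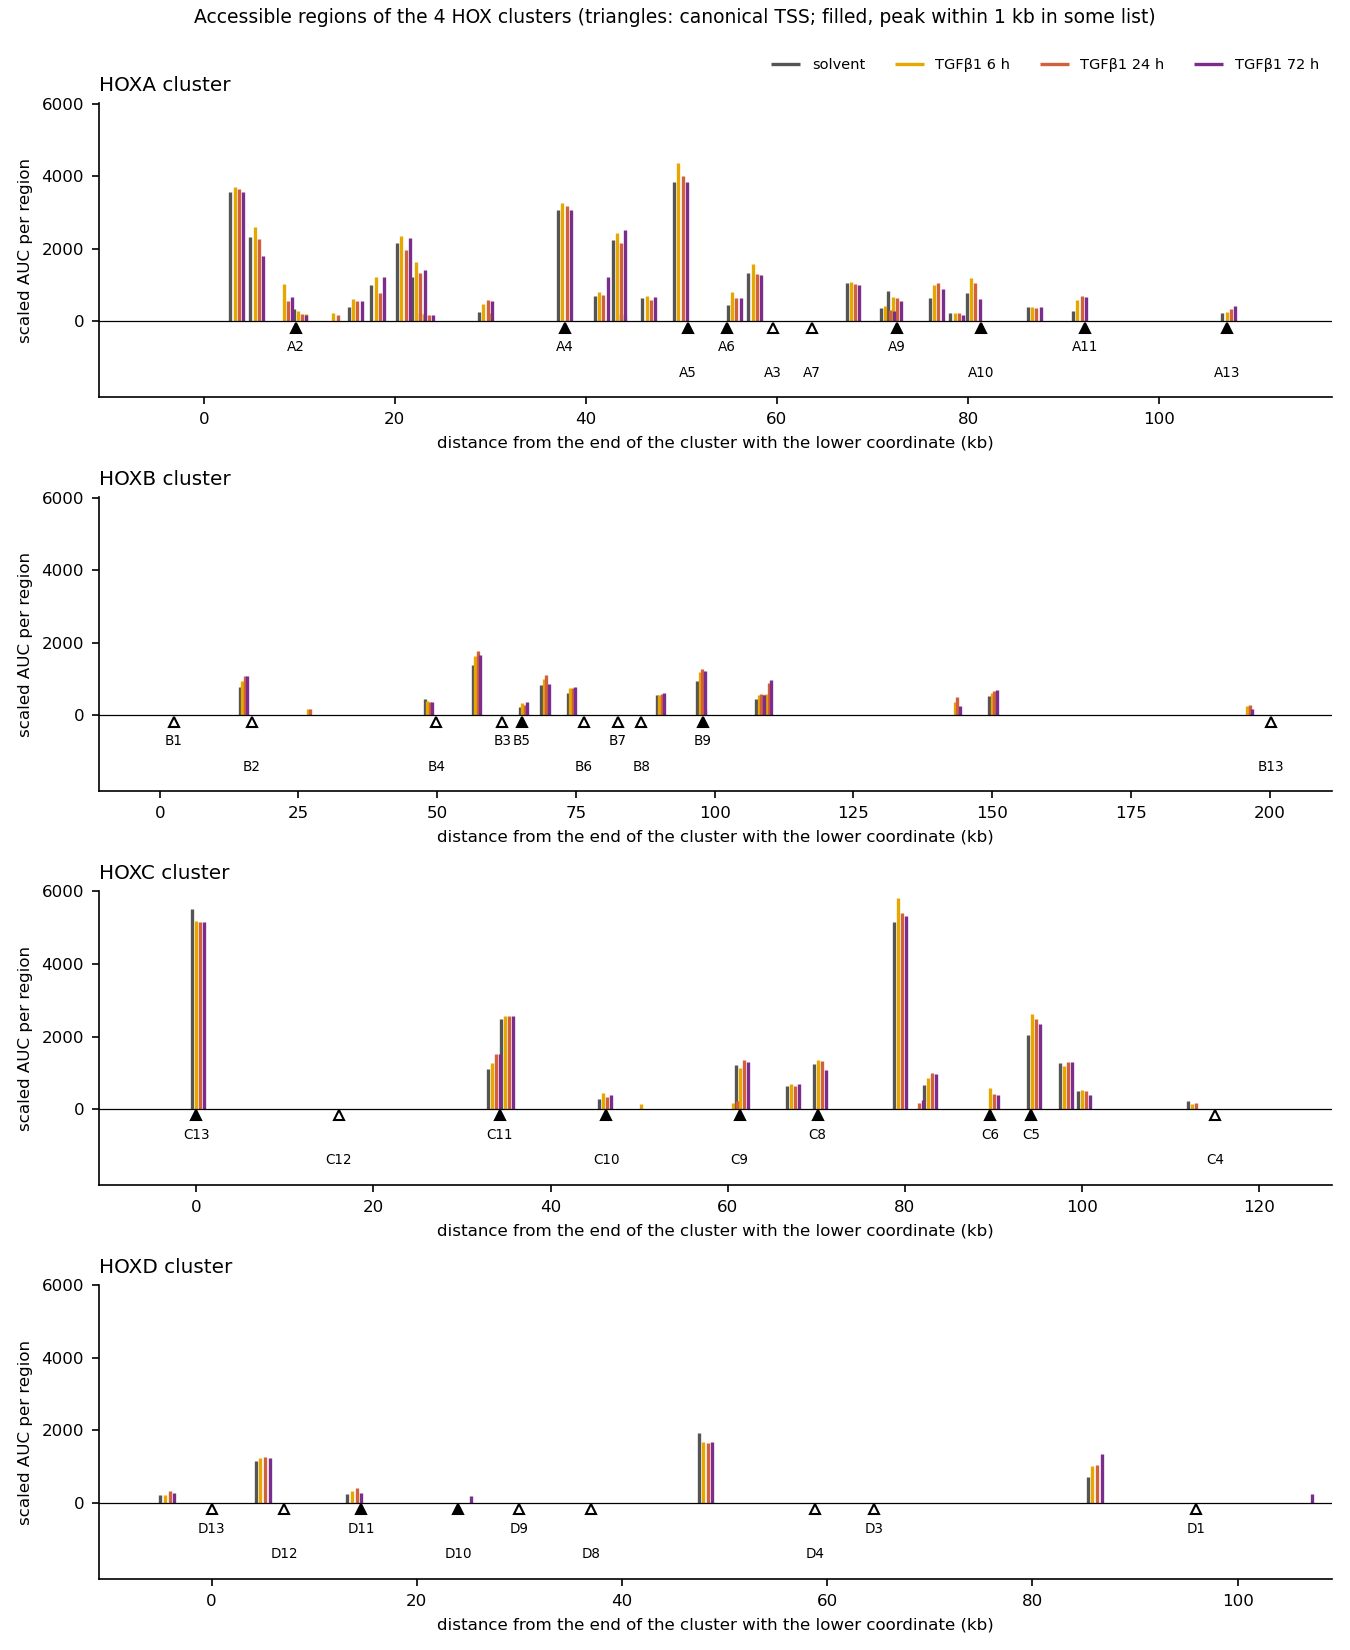
Scaled AUC of each HOX region in the 4 lists (vertical lines, shifted slightly sideways so that lists can be told apart) against distance along each cluster in kb, with 1 panel per cluster and the same vertical axis in all. Triangles mark canonical start sites, filled where a peak lay within 1 kb of it in some list; HOXA and HOXC carry the tall lines and HOXB and HOXD have long stretches with none.

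A gene was called open when a peak touched the 1 kb on either side of the start site of its Ensembl canonical transcript. In solvent 18 of 39 HOX genes were open, against 65.7% of the 19931 protein-coding genes outside the clusters. At 6 and 24 h 19 were open (67.5% and 67.7% of the other genes) and at 72 h 20 (67.1%). With every list cut to the length of the solvent list 18, 18, 16 and 18 HOX genes were open, and with a peak limit of 400 it was 11, 18, 18 and 18. The shares of other genes at these settings were not computed. The difference from the other genes was not tested, since HOX genes are neighbours and each list is 1 measurement. By cluster, 9 of 11 HOXA genes, 6 of 9 HOXC genes, 2 of 10 HOXB genes and 1 of 9 HOXD genes were open in solvent.

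In HOXA the open genes included HOXA2, HOXA4, HOXA5, HOXA6, HOXA9, HOXA10, HOXA11 and HOXA13, in every list. HOXA5, a regulator of lung and mammary development, had the largest AUC of the cluster in solvent, 3846, and 5909, 5199 and 4554 at 6, 24 and 72 h. After scaling these are ratios of 0.18, 0.055 and -0.0032, so the level of HOXA5 at 72 h matched that of solvent. HOXA4 was as steady, with a scaled ratio at 72 h of -0.0095. HOXA3 and HOXA7 were closed by this definition in every list. The canonical start of HOXA3 lies between HOXA6 and HOXA7, and 1454 bp separated it from the nearest region, whereas other annotated HOXA3 transcripts start within the open stretch between HOXA2 and HOXA6.

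In HOXB the 2 open genes were HOXB5 and HOXB9. HOXB9, whose paralog group takes part in mammary gland growth, had the largest TSS level of the cluster, with an AUC of 932 in solvent and 1623, 1870 and 1442 under TGFβ1, or scaled ratios of 0.36, 0.62 and 0.38. It lay above solvent at all 3 times and was highest at 24 h, when a second small region, HOXB-r10, was listed beside it with an AUC of 202. HOXB1, HOXB2, HOXB3, HOXB4, HOXB6, HOXB7, HOXB8 and HOXB13, the last known from the prostate, were closed by this definition in every list. Counting other annotated starts, HOXB2 and HOXB6 had a peak in every list and HOXB3 at 6 and 24 h only. For HOXB2 and HOXB4 the nearest region lay just outside the window, at 1084 and 1279 bp, both within the gene.

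In HOXC the genes HOXC5, HOXC8, HOXC9, HOXC10, HOXC11 and HOXC13 were open in every list. HOXC13, which controls hair and nail keratins, had the largest TSS level of all 39 genes, with an AUC of 5505 in solvent and 7049, 6724 and 6119 at 6, 24 and 72 h. Scaled, it stayed slightly below solvent at each time (-0.085, -0.091 and -0.094). HOXC4 and HOXC12 were closed in every list, HOXC12 with no region closer than 14865 bp.

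HOXC6, which is transcribed from more than one promoter, had no peak at its canonical start in solvent. Its AUC there under TGFβ1 was 778, 534 and 447, all in HOXC-r13, whose summit lay 35 bp upstream of the start site. The level was thus highest at the earliest time and lower at each later one. An upstream start site of other HOXC6 and HOXC4 transcripts lay in HOXC-r10, the widest of all HOX regions at 3323 bp, which was open throughout with an AUC of 5171, 7920, 7036 and 6307 and scaled ratios of 0.17, 0.064 and 0.040. The HOXC6 gene therefore had open chromatin in all lists at one start site and in the TGFβ1 lists only at the other.

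In HOXD only HOXD11, which with HOXA11 shapes the forearm, was open in every list. Its AUC was 239 in solvent, close to the listing limit, and 432, 552 and 332 under TGFβ1, or scaled ratios of 0.41, 0.83 and 0.23. HOXD10 had a peak at 72 h alone, with an AUC of 242, also near the limit. HOXD1, HOXD3, HOXD4, HOXD8, HOXD9, HOXD12 and HOXD13 were closed in every list. The largest HOXD level was not at a canonical start site but in an intron of HOXD3 (HOXD-r5), where the AUC was 1924 in solvent and 2279, 2138 and 1994 under TGFβ1. After scaling it lay below solvent at each time (-0.20, -0.23 and -0.20).

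**Figure D2:**
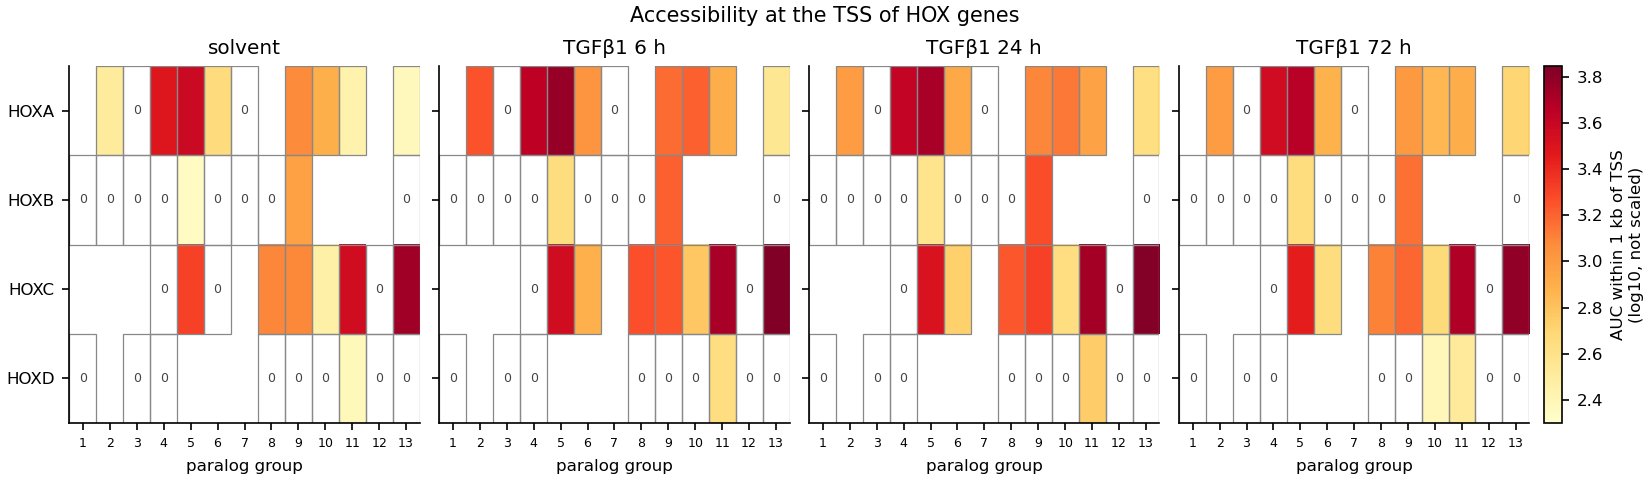
AUC within 1 kb of the canonical TSS (colour, log10, as deposited and not scaled between lists) for the HOX genes by cluster (rows) and paralog group (columns), with 1 panel per list. A 0 marks a gene with no peak and a blank cell with neither colour nor 0 marks a paralog that does not exist or is not reported here; HOXC6 and HOXD10 are the only genes that change state between panels.

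Ordered by paralog group and counted at canonical starts, fewer genes were open at the low-numbered end. In groups 1 to 3, 2 of 8 genes were open in solvent, in groups 4 to 8 it was 6 of 15 and in groups 9 to 13 it was 10 of 16. Under TGFβ1 the counts were 2, 7 and 10 at 6 and 24 h and 2, 7 and 11 at 72 h. All 3 members of group 5 (HOXA5, HOXB5, HOXC5) and all 3 of group 11 (HOXA11, HOXC11, HOXD11) were open in every list. No member of group 3, 7 or 12 was, counted at canonical starts. Within a group the levels were far apart. The AUC in solvent was 3846 at HOXA5, 2048 at HOXC5 and 218 at HOXB5, and it was 3574 at HOXC11, 276 at HOXA11 and 239 at HOXD11. These are areas that also grow with the width of the region, and the number of regions summed differs between genes.

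Counting a peak at the start of any annotated transcript opened 23 genes in solvent and 24 in each TGFβ1 list. The matching share of other genes was not computed. The clusters kept their order, with 10, 8, 4 and 1 open genes in HOXA, HOXC, HOXB and HOXD in solvent. The order of the paralog groups was not kept in the same way. In groups 1 to 3, HOXA3 and HOXB2 then had a peak in every list and HOXB3 at 6 and 24 h. The lower count at the low-numbered end thus depends on the use of canonical starts. Only 25 of the 69 regions lay within 1 kb of a canonical HOX start site. The summits of 31 regions were in introns of some HOX gene and those of 17 in exons, leaving out summits in untranslated exon parts only. Because long HOX genes span others, some of these intron summits lay at the start site of another HOX transcript, as in HOXA-r19 (HOXA5) and HOXC-r13 (HOXC6). Nevertheless 91.3% of the HOX regions were within 3 kb of some annotated start site, against 34.4% of all regions, and 76.8% had a peak in every list, against 62.6% of all regions and 73.4% of those within 3 kb of a TSS. The HOX regions were 565 bp wide at the median, which compares with 384 bp over all regions and 526 bp near start sites.

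The question the time course addresses is which chromatin sites open or close as MCF10A cells respond to TGFβ1. Of the 69 HOX regions, 53 had a peak in every list. Against solvent, 10 regions were gained at 6 h, 9 at 24 h and 7 at 72 h, where gained means a peak in the TGFβ1 list and none in solvent. Over all regions present in either list of a pair, 22.9%, 29.8% and 29.3% were gained. No HOX region was lost at 6 h, 1 was lost at 24 h and 2 at 72 h, where the shares over all regions were 0.551%, 1.31% and 2.43%. The longer TGFβ1 lists enter these counts: with every list cut to the length of the solvent list, 2, 3 and 2 HOX regions were gained and 7, 10 and 8 lost. The gained regions were small. The largest AUC among regions missing from some list was 1394, at HOXA-r3, while HOX regions reached 7920.

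Only 4 regions were gained at all 3 times. HOXA-r3 has its summit in an exon of HOXA2, a gene of the second pharyngeal arch, 1050 bp from the start site, and had AUC values of 1394, 712 and 779 at 6, 24 and 72 h. HOXC-r13 at the HOXC6 start is given above. HOXB-r13, in the noncoding gene LINC02086 between HOXB9 and HOXB13, had 477, 661 and 298. HOXB-r15, in PRAC2, had 348, 380 and 215. The HOXA2 and HOXC6 regions were highest at 6 h and the HOXB pair at 24 h. No region was lost at all 3 times. HOXA-r17 had a peak in solvent and at 6 h only (AUC 202 and 233), and HOXC-r17 in every list except 72 h (226, 200.8 and 221), so all values of both lay close to the limit of 200. Peaks at 72 h alone were listed in HOXD-r4 at HOXD10 and in HOXD-r7, 10553 bp downstream of the HOXD1 start, with an AUC of 242 and 296.

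Regions with a peak in both lists were compared by scaled ratio. At 6 h 8 of 55 were higher by at least 1.5-fold (11.7% of all regions were), at 24 h 7 of 54 (20.3%) and at 72 h 7 of 53 (22.9%). Lower by as much was 1 region at each time, against 1.4%, 3.22% and 3.9% of all regions. It was HOXC-r17 at 6 h (-0.61) and HOXA-r4 at 24 and 72 h. The regions higher at 6 h were HOXA-r7, HOXA-r12, HOXA-r20, HOXA-r25, HOXA-r27, HOXA-r29, HOXB-r5 and HOXC-r4, with 6 of the 8 in HOXA. At 24 h they were HOXA-r12, HOXA-r25, HOXA-r29, HOXB-r12, HOXC-r12, HOXD-r1 and HOXD-r3, and at 72 h HOXA-r12, HOXA-r15, HOXA-r29, HOXA-r30, HOXB-r5, HOXB-r12 and HOXD-r6. HOXA-r12 and HOXA-r29 were thus higher at all 3 times. As shares, 14.5%, 13% and 13.2% of the HOX regions were higher, above the share over all regions at 6 h and below it at 24 and 72 h. Among regions within 3 kb of a TSS, where most HOX regions lie, the shares were 7.49%, 12.6% and 13.4%, close to the HOX shares at 24 and 72 h. The median scaled ratio of the HOX regions was 0.16, 0.12 and 0.13 at 6, 24 and 72 h. Over all regions it was 0.064, 0.12 and 0.15. Of the 53 regions in every list, 29 lay above solvent at every time and 7 below it at every time. The matching shares over all regions were not computed. All 3 ratios of a region are taken against the same solvent list, so the times are not independent, and the counts hold for this scaling only.

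These calls moved with the measure and the scaling. With the AUC divided by peak length, 2, 2 and 4 HOX regions were higher and 1, 1 and 3 lower. Scaled to regions farther than 3 kb from a TSS, 3 were higher at each time and 1, 5 and 7 lower, and without scaling 29, 22 and 17 were higher and 0, 0 and 1 lower.

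**Figure D3:**
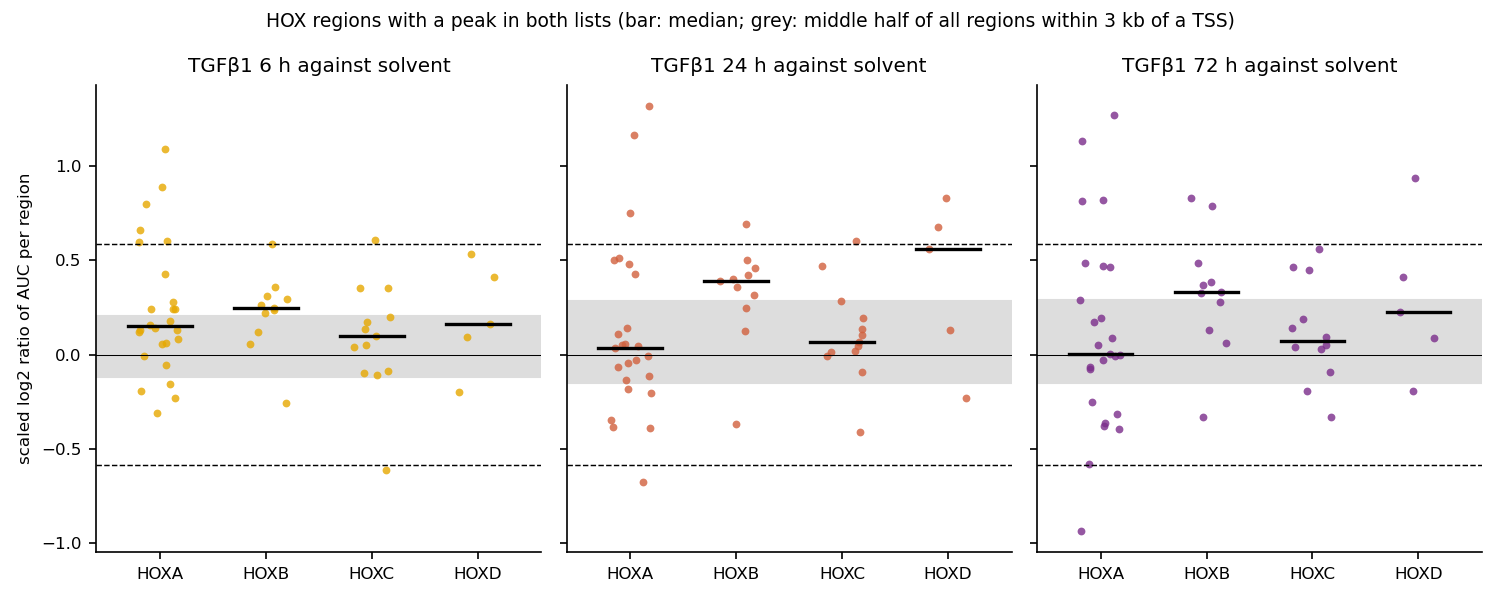
Scaled log2 ratio of AUC for every HOX region with a peak in both lists, by cluster, at 6, 24 and 72 h against solvent; bars are medians, dashed lines mark 1.5-fold and the grey band holds the middle 50% of all regions within 3 kb of a TSS. Most points lie between the dashed lines, and the HOXB median is above the grey band at each time.

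The change differed with the level in solvent. The 11 HOX regions with a solvent AUC over 1500 had median scaled ratios of 0.12, 0.037 and 0.0033, and none was called higher or lower at any time. The 26 regions between 500 and 1500 had medians of 0.23, 0.13 and 0.17. The 18 regions under 500 had medians of 0.20, 0.39 and 0.37. Regions near start sites anywhere in the genome ran the same way, with -0.063, -0.092 and -0.079 over 1500, 0.062, 0.092 and 0.099 from 500 to 1500, and 0.22, 0.36 and 0.34 under 500. In both sets the regions that were weak in solvent moved up more than the strong ones. A weak region can show only a small fall before it drops under the limit of 200 and leaves the comparison. The solvent AUC also both sorts the regions and divides each ratio, so level and ratio are not independent measures. The medians therefore cannot show whether the response depends on the level in solvent, and the part of either point in them was not tested.

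**Figure D4:**
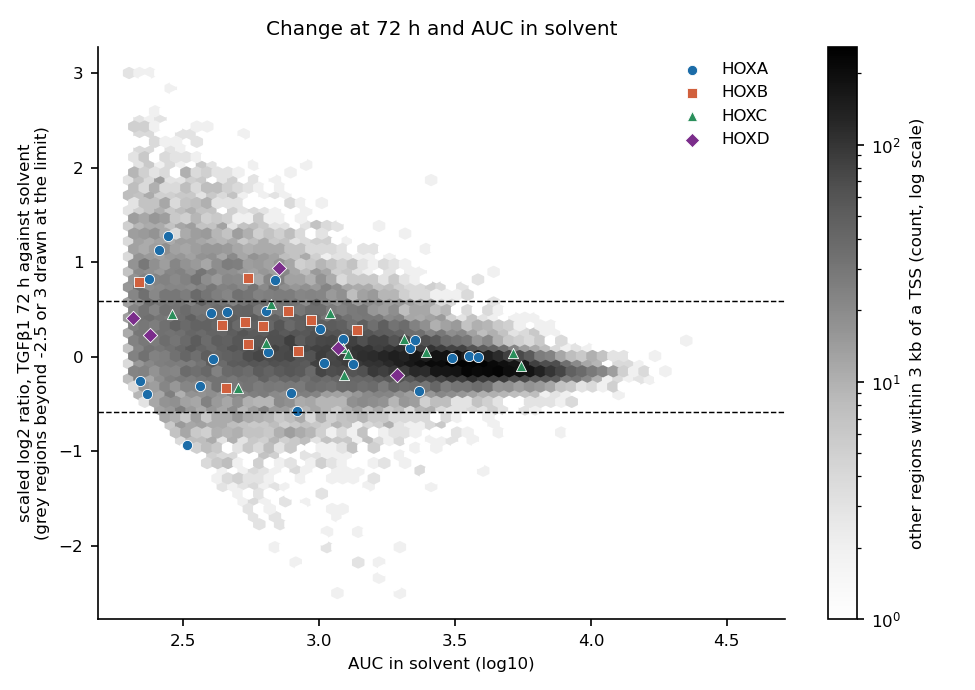
Scaled log2 ratio at 72 h against log10 AUC in solvent for HOX regions (symbols by cluster) over all other regions within 3 kb of a TSS (grey, darker where more regions lie). HOX regions with a solvent AUC over 1500 have a median of 0.0033 and the large ratios are at lower AUC; the empty lower left corner holds regions that would fall under the AUC limit.

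Summed over each cluster, the scaled log2 AUC ratio to solvent was largest in HOXB, at 0.36, 0.52 and 0.40 at 6, 24 and 72 h. The covered length of HOXB rose 1.39-fold, 1.49-fold and 1.28-fold at the same times, and its scaled AUC per covered base moved by 0.032, 0.070 and 0.11 (log2). Pooled over the cluster, the larger sums in HOXB thus came with longer covered DNA and a nearly even AUC per base. Its single regions differed. Of the HOXB regions with a peak in both lists, only HOXB-r7 was below solvent per base at 72 h (-1.10). The others ran from 0.015 at HOXB-r11 to 0.71 at HOXB-r5. HOXA had 0.27, 0.087 and 0.090, with covered lengths 1.37, 1.17 and 1.12 times that in solvent and AUC per base at -0.041, -0.018 and -0.00018. The rise of HOXA was mainly at 6 h. HOXC had 0.14, 0.14 and 0.084, with covered lengths of 1.33, 1.31 and 1.14 times solvent and -0.12, -0.12 and -0.037 per base. HOXD had 0.083, 0.15 and 0.32, with 1.04, 1.18 and 1.34 times the length and 0.17, 0.042 and -0.038 per base. HOXA was highest at 6 h, HOXB at 24 h and HOXD at 72 h. Scaled to regions farther than 3 kb from a TSS, the sums at 72 h were -0.18 (HOXA), 0.13 (HOXB), -0.19 (HOXC) and 0.046 (HOXD), so that HOXA and HOXC turned negative.

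Of the 5 regions with the largest rise at 72 h, HOXA-r29 in an exon of HOXA11, a gene of the uterus and forearm, came first. It rose from an AUC of 276 in solvent to 799, 897 and 791, or scaled ratios of 1.09, 1.32 and 1.27. Its peak widened from 191 bp to 540, 540 and 516 bp, and the AUC per base did not rise with it (-0.26, -0.056 and -0.092). HOXA-r12, in an intron of HOXA3, had AUC values of 258, 648, 752 and 670 and widths of 203, 602, 705 and 703 bp. Its AUC rose while its AUC per base was lower than in solvent, by ratios of -0.53, -0.51 and -0.59. The other 3 gained in AUC per base as well as in AUC. HOXD-r6 at the noncoding genes HAGLR and HAGLROS had 711 in solvent and 1397, 1363 and 1615, with a scaled ratio at 72 h of 0.94 and 0.85 per base. HOXB-r12, in LINC03057 beyond HOXB9, had 547, 807, 1150 and 1156, with 0.83 and 0.48 per base. HOXA-r30 at HOXA13, a gene of the distal limb and genital tract, had 236, 354, 429 and 496, with 0.82 and 0.66 per base, and was higher at each later time.

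The 5 regions with the largest fall were all in HOXA. HOXA-r4, upstream of HOXA2, had an AUC of 325 in solvent and 387, 265 and 202 under TGFβ1, with scaled ratios of -0.19, -0.68 and -0.94, and it was the only region lower by 1.5-fold at 24 and at 72 h. Its peak narrowed from 327 bp to 193 bp at 72 h, and per base the ratios were 0.29, 0.071 and -0.10. HOXA-r24, at HOXA9, had 827, 906, 823 and 657, with -0.31, -0.39 and -0.58, and -0.49 per base at 72 h. Both were lowest at 72 h. HOXA-r11, in a HOXA3 intron, had 232, 282, 231 and 209, ending at -0.39, or -0.35 per base. HOXA-r27 at HOXA10 had 786, 1623, 1374 and 716, and went from 0.60 at 6 h to -0.38 at 72 h, where it was 0.069 per base. HOXA-r2, in the noncoding gene HOTAIRM1, had 2325, 3523, 2938 and 2146, and went from 0.16 to -0.36, or -0.29 per base. In AUC the last pair stood above solvent at 6 h and below it at 72 h, which per base held for HOXA-r2 and not for HOXA-r27.

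**Figure D5:**
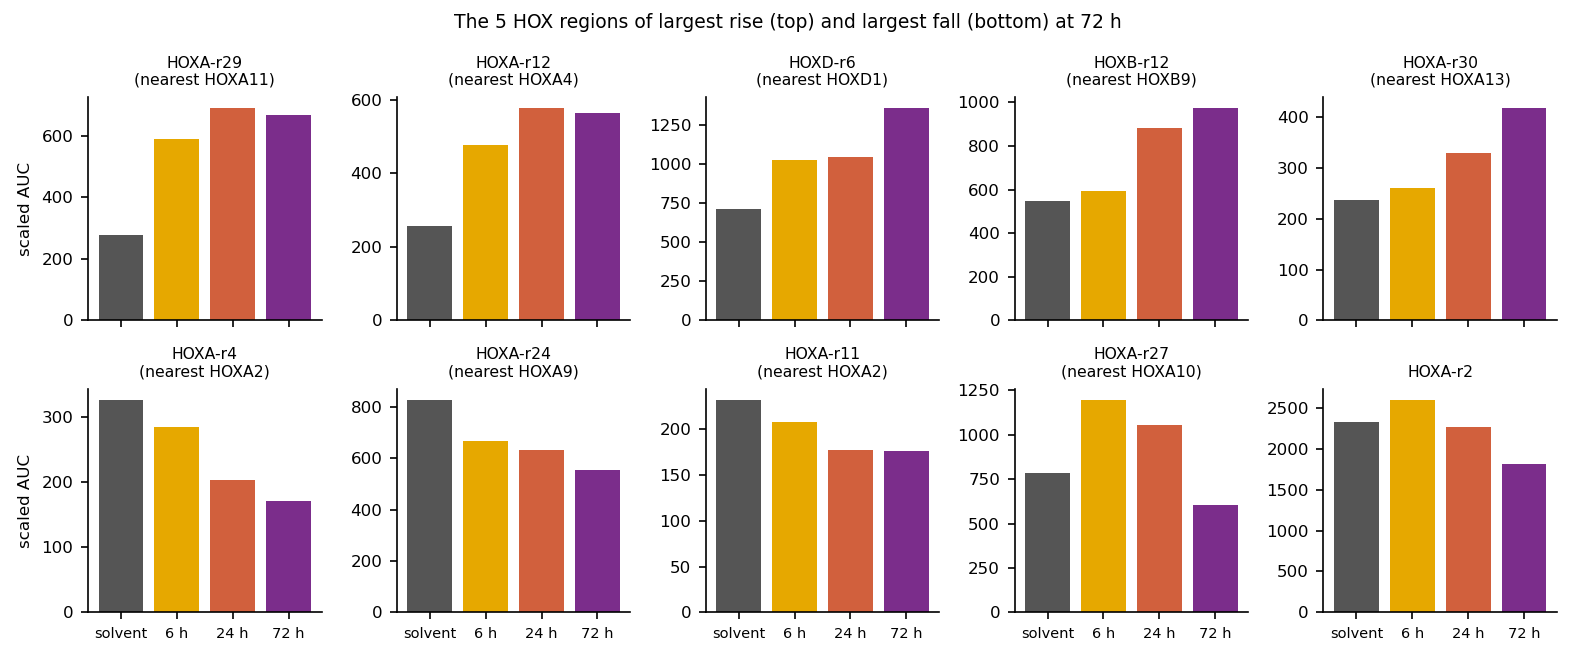
Scaled AUC in solvent and at 6, 24 and 72 h of TGFβ1 for the 5 HOX regions with the largest rise (top row) and the 5 with the largest fall at 72 h (bottom row) among regions with a peak in every list; each panel has its own vertical axis from 0. HOXA-r29 and HOXA-r12 are up by 6 h, HOXB-r12 and HOXA-r30 later, and HOXA-r27 is up at 6 h and down at 72 h.

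At gene level the largest rises at 72 h among genes open in every list were at HOXA2 (1.34), HOXA11 (1.27), HOXA13 (0.82) and HOXB5 (0.79). HOXA11 and HOXA13 each rest on 1 region given above. HOXB5 had an AUC of 218 in solvent and 444, 379 and 446 under TGFβ1, so that solvent was lowest and close to the limit. HOXA2 sums opposite movements. Its AUC of 325, 1780, 976 and 981 combines HOXA-r3 in the gene body, which was absent in solvent and enters there as 0, with HOXA-r4 upstream, which fell. The largest falls were at HOXA9, HOXA10, HOXC8 and HOXC13. HOXA9, a partner of MEIS1 in leukaemia, had 1190, 1489, 1239 and 1003, and was below solvent at each time (-0.12, -0.32 and -0.49). HOXC8 had 1236, 1844, 1727 and 1281 and ended at -0.20. None of these 4 genes was lower by 1.5-fold at any time, and HOXA10 was higher by that much at 6 h (0.60).

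Along HOXA the scaled ratio at 72 h was -0.49 at HOXA9 and -0.38 at HOXA10, and 1.27 and 0.82 at the next genes HOXA11 and HOXA13. Per base of peak, HOXA10 stood at 0.069 and HOXA11 at -0.092, so the contrast between these neighbours was not seen per base. The regions at HOXA9 stood at -0.085 (HOXA-r23) and -0.49 (HOXA-r24) per base. The part of peak width in the contrast was not tested. HOXA13 remained above solvent per base, at 0.66. In the same cluster HOXA4 and HOXA5 were at the solvent level at 72 h, as given above.

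Noncoding genes of the clusters were read from the same regions. Of 21 on a fixed list, 12 had a peak within 1 kb of the canonical start site in every list and 9 in none. The matching share over all noncoding genes was not computed. HOTAIR, a long noncoding RNA that binds Polycomb proteins, had an AUC of 2477 in solvent and 3480, 3331 and 3046 under TGFβ1, with scaled ratios of 0.049, 0.048 and 0.051, in HOXC-r3, a region it shares with HOXC11. The other members with a peak were HOTAIRM1, HOXA-AS2, HOXA-AS3, HOXA10-AS, HOXA11-AS, HOXB-AS1, HOXC-AS1, HOXC-AS3, HAGLROS, MIR196B and MIR615. HOTTIP, HOXB-AS3, HOXC-AS2, HAGLR, HOXD-AS2, MIR10A, MIR10B, MIR196A1 and MIR196A2 had none there. Other annotated starts of HOTTIP, HOXB-AS3 and HAGLR did lie within 1 kb of a region present in every list, which was HOXA-r30, HOXB-r7 and HOXD-r6. The data hold no transcripts, so a peak says nothing of whether a gene beside it was transcribed.

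The miR-196 family, whose members target HOX messengers, is encoded once in each of HOXA, HOXB and HOXC. The mature 5p sequences are shown because the copies share a seed (capitals, bases 2 to 8) while their loci differed in openness. They were read from the RefSeq miRNA table for GRCh38.p14.
hsa-miR-196a-5p: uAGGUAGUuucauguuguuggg
hsa-miR-196b-5p: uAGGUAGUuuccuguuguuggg
MIR196B in HOXA, at chr7:27169480-27169563, lay by HOXA-r25 with an AUC of 636 in solvent and 1363, 1391 and 1057 under TGFβ1, or scaled ratios of 0.66, 0.75 and 0.49. The region was above solvent at all 3 times. MIR196B shares it with the start of HOXA10-AS, and its summit lay in an exon of HOXA9, so the level is not that of MIR196B alone. MIR196A1 in HOXB and MIR196A2 in HOXC, which give the other mature form, had no peak within 1 kb in any list.

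The TALE partners were open almost throughout. Of 9 genes on the list, which included PBX2, PBX3, PBX4, MEIS1, MEIS2, PKNOX1 and PKNOX2, 8 had a peak at the TSS in every list and MEIS3 had none in any. Of the protein-coding genes outside the HOX clusters, 65.7% were open in solvent and 67.5%, 67.7% and 67.1% at 6, 24 and 72 h. With 9 genes the difference was not tested. Scaled ratios at 72 h ran from -0.18 at PKNOX1 to 0.34 at PBX2, and none of the 8 changed by 1.5-fold at any time. MEIS1 had an AUC of 5086 in solvent and 6986, 7256 and 6043 under TGFβ1, which is 0.016, 0.13 and 0.0018 after scaling.

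The HOX regions were rich in GC and CpG. Over the 100 bp on either side of the summit, median GC content was 61.2% and the CpG ratio 0.74, against 48.3% and 0.21 over all regions and 54.7% and 0.34 near start sites. All 18 HOX genes open in solvent had a CpG ratio of at least 0.6 in the 1 kb around the TSS, and so did 15 of the 21 closed ones (71.4%). Among other protein-coding genes 86.3% of the open and 27.9% of the closed ones reached that value. The closed HOX promoters were thus CpG-rich in most cases.

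Motifs were searched on both strands of the same stretch around the summit. The letters of the AP-1 motif, TGANTCA, were found in 7 of 69 HOX windows (10.1%), in 40.5% of all windows and in 27.5% of those near start sites. AP-1 factors include JUN and JUNB, which the study examined. The share went with CpG content. Among windows near start sites with a CpG ratio of at least 0.6 it was 4.19%, and 2 of 43 such HOX windows had it (4.65%). Under 0.6 it was 38.6% near start sites and 5 of 26 in HOX (19.2%). The HOX windows with the motif were HOXA-r8, HOXA-r15, HOXB-r12, HOXC-r4, HOXC-r15, HOXD-r4 and HOXD-r7. Both regions listed at 72 h alone, HOXD-r4 and HOXD-r7, were among them, as were HOXA-r15 and HOXB-r12, whose scaled ratios at 72 h were 0.81 and 0.83. The remaining 3 had 0.29 (HOXA-r8), 0.45 (HOXC-r4) and 0.030 (HOXC-r15). Of the 7 HOX regions higher by at least 1.5-fold at 72 h, 2 had the motif. HOXA-r29, HOXA-r12, HOXD-r6 and HOXA-r30 lacked it, and so did HOXA-r3, HOXB-r13, HOXB-r15 and HOXC-r13, which were gained at every time. A link between the motif and the change was not tested.

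The PBX-HOX composite TGATTNAT was present in 5.8% of HOX windows, 6.64% of all and 3.96% of those near start sites, and the homeodomain core TAATTA in 1.45%, 3.46% and 2.36%. For MEIS (TGACAG) the shares were 7.25%, 13.7% and 12.5%, for the E-box CACCTG 7.25%, 17.9% and 18.5%, and for TEAD (GGAATG) 5.8%, 15.9% and 13%. The short CTCF core AGGNGGCNG, part of the site of the insulator protein CTCF, was in 14.5%, 9.18% and 13.8%. With 69 windows these shares rest on 1 to 10 windows each, and a match of letters is not a bound site. Unlike for AP-1, shares at like CpG content were not computed for these motifs. Differences from the other windows therefore cannot be told apart from the higher GC and CpG content of HOX windows.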

How the data were processed

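MCF10A cells were profiled by ATAC-seq in 8 libraries (4 conditions, 2 replicates each). According to the study's methods and the submitters' processing notes, the authors trimmed reads (Trimmomatic 0.38), aligned them to GRCh38 (Bowtie2 2.4.5), removed duplicates (Picard) and kept properly paired reads with a mapping quality above 30 (SAMtools 1.4.1). Genrich 0.5 was used in the mode for ATAC-seq, pooling the replicate pair of each condition (AUC above 200, adjusted p below 0.01), and blacklisted regions were removed. The deposited AUC is a score without scaling for depth between lists. The deposited −log10 q value at the summit was at least 3.32 in every HOX peak. The deposited summit position, another column, placed the motif windows.

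Each list was assigned by the condition in its name. Peaks were merged on 1 shared base and annotated with GENCODE 44. Per region and list the AUC was summed, and ratios were scaled by the median log2 ratio at 32923, 32594 and 32098 regions within 3 kb of a TSS at 6, 24 and 72 h. With 1 pooled list per condition no test was made, and the study gives a sequencing target but the usable depth per sample is unknown, so no counting interval is given. The genes of the HOX, TALE, noncoding and epithelial lists and the motifs were chosen with earlier results of these data known. Values in every list are given for the gene of largest solvent AUC in each cluster, the 4 genes and 5 regions of largest rise and of largest fall at 72 h, genes open in some lists only, and regions gained or lost at all times. HOXA4, HOXC5, MEIS1 and the regions discussed beyond that rule (HOXC-r10, HOXD-r5, HOXA-r15, HOXA-r17, HOXC-r17 and the AP-1 windows) were named after their values were seen. Values of some members, and some sequences, are not reported here. Alternatives covered the TSS window and transcript, the peak limit, list length, overlap, flank, scaling, fold and AUC per base. Procedures were tested on simulated data. Python 3.11.15 was used with numpy 2.4.6, pandas 2.3.3 and matplotlib 3.10.9.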

Additional observations from a re-analysis of the deposited data

How the results depend on the processing

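Of 173 values recomputed under 14 other settings, 111 stayed within 0.25 (log2) or 1.5-fold (counts) of the reported value and 62 moved further. With a peak limit of 400, 11 HOX genes were open in solvent and 18 in each TGFβ1 list, and no region was lost at 24 or 72 h (0 and 0). With lists cut to equal length, the open genes numbered 18, 18, 16 and 18, without the reported rise, and 2, 3 and 2 regions were gained and 7, 10 and 8 lost at 6, 24 and 72 h, so the excess of gains over losses depends on the longer TGFβ1 lists. When peaks counted as shared only with 50% of each overlapped, and peaks rather than regions were counted, 23, 18 and 16 were gained and 24, 19 and 14 lost. Without scaling, 29, 22 and 17 regions were higher and 0 lower at 6 and 24 h, the median ratio was 0.60 and 0.50 at 6 and 24 h, and the cluster sums at those times were 0.71 and 0.47 (HOXA), 0.80 and 0.90 (HOXB), 0.58 and 0.52 (HOXC) and 0.52 and 0.53 (HOXD). Scaled by all regions, 4 and 4 were higher at 6 and 24 h and 2 lower at 72 h. Scaled by distal regions, 3, 3 and 3 were higher and 5 and 7 lower at 24 and 72 h, the median was -0.11 at 24 h, and the sums of HOXA, HOXC and HOXD at 24 h (-0.14, -0.089 and -0.074) and of HOXD at 6 h (-0.037) turned negative. At 72 h the median was -0.14 and the sums were -0.18 (HOXA), 0.13 (HOXB), -0.19 (HOXC) and 0.046 (HOXD). Per base, 2, 2 and 4 were higher and 3 lower at 72 h, and the sums were -0.041 (HOXA), 0.032 (HOXB) and -0.12 (HOXC) at 6 h, 0.070 (HOXB) and -0.12 (HOXC) at 24 h, and 0.11 (HOXB) and -0.038 (HOXD) at 72 h. At 2-fold, 1, 2 and 2 were higher and 0, 0 and 0 lower. With flanks of 50 kb the HOXB sum was 0.87 and 0.89 at 24 and 72 h. Shares over all genes or regions were not computed under these settings. For values that moved, the cause was not tested unless the setting itself states it.

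No paired analysis was possible because each condition has 1 list pooled from its replicates. The spread between replicates, the reads per library and the depth reached are unknown, so small ratios cannot be told from library differences, and levels near the limit of 200 are the least certain. In bulk chromatin, a change in all cells and a change in the share of open cells cannot be told apart.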

Other observations

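The DNA beyond the clusters was looked at after the data had been seen, in the 500 kb past the 10 kb flank on each side. On the HOXD13 side of HOXD, 5 regions had a peak in solvent and 11, 19 and 16 at 6, 24 and 72 h, with 6, 14 and 11 gained and 0 lost at any time. Over the genome 22.9%, 29.8% and 29.3% of the regions in either list of a pair were gained. Of the 19 regions on that side, 17 were farther than 3 kb from a start site, and the gained share over such regions alone was not computed. Regions with a peak in both lists had median scaled ratios of 0.23, 0.56 and 0.50 there, over the 5 listed in solvent. On the HOXD1 side 14 regions were listed in solvent and 18, 21 and 20 under TGFβ1, with medians of 0.21, 0.25 and 0.24. At 72 h the medians were 0.38 and 0.36 on the sides of HOXA, 0.13 and 0.12 beside HOXB, and 0.054 and 0.18 beside HOXC. At 24 h 8 regions were gained on the HOXD1 side. At the same time 6 and 10 were gained on the sides of HOXA, 12 and 7 beside HOXB, and 10 and 13 beside HOXC. None of these differences was tested.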
